A study of Mus musculus with 24 samples.

Results

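The genes examined here are Omp, S100a5, Cdhr1, Eomes and Doc2g, 5 of the 24340 genes shared by the deposited tables of striatal RNA-seq. They were chosen by symbol as genes of olfactory sensory neurons and of olfactory bulb projection neurons whose level was raised in wild type mice treated with RGFP109. The level in that group is therefore part of how they were picked, and it is described here without a test.

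Striatum of 1 hemisphere was sequenced from 24 male mice in 4 groups, which were WT-vehicle (n = 5), R6/1-vehicle (n = 6), WT-RGFP109 (n = 6) and R6/1-RGFP109 (n = 7). R6/1 mice are hemizygous for a transgene holding exon 1 of human HTT with an expanded CAG repeat, and wild type (WT) littermates shared their C57BL/6J background. RGFP109, an inhibitor of the histone deacetylases HDAC1 and HDAC3, was injected intraperitoneally at 30 mg/kg 5 times a week for 3 weeks (23 days), and vehicle mice received dimethyl sulfoxide in saline. Treatment began at an age of 11 to 14 weeks, and tissue was taken at 14 to 17 weeks, 18 h after the last injection. The tables hold 1 FPKM value per group (fragments per kilobase of exon, scaled to the mapped fragments of the library) and no value per mouse. No error or test was computed from them and depth is unknown, and whether a single library of the 6 sets a WT-RGFP109 value was not examined here. A set of 10 striatal projection neuron genes such as Drd1 and Ppp1r1b summed to between 3496 and 3634 FPKM in WT-RGFP109 and 3638 and 3778 in WT-vehicle. The sums were 1483 to 1533 FPKM in R6/1-vehicle and 1337 to 1378 in R6/1-RGFP109. All 10 were above 0 in every group, as were 86.0% of protein-coding genes outside the chemosensory receptor families, so this is no check of the tissue label.

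Olfactory sensory neurons have their cell bodies in the nasal epithelium and send axons into the glomeruli of the olfactory bulb. There they contact the mitral and tufted cells, the glutamatergic output neurons of the bulb, while local interneurons, some of them dopaminergic, shape the signal, and ensheathing glia wrap the incoming axons. Omp encodes olfactory marker protein, the classic label of mature sensory neurons, and S100a5 encodes a calcium-binding protein of the same cells. Cdhr1 (protocadherin 21) marks mitral and tufted cells and is also known from photoreceptors. Eomes (Tbr2) is a T-box transcription factor of mitral and tufted cells that also acts in other lineages, and Doc2g encodes a protein with C2-like domains found in the same output neurons. None of the 5 is a classic marker of striatal neurons.

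The sequence upstream of each start site is shown because the 5 genes had their highest value in the same group. RefSeq windows of 300 bases (250 before the start site and 50 from it, build GRCm38.p6) matched 4 of the 5 members, all but Omp. The upstream bases are given 5′ to 3′ on the strand of the gene, at chr3:90608272-90608521 (plus) for S100a5, chr14:37098348-37098597 (minus) for Cdhr1, chr9:118477939-118478188 (plus) for Eomes and chr19:4003135-4003312 (plus) for Doc2g. The Doc2g run has 178 bases because it stops where a longer annotated transcript begins. Capitals mark the only match to a motif searched.
S100a5: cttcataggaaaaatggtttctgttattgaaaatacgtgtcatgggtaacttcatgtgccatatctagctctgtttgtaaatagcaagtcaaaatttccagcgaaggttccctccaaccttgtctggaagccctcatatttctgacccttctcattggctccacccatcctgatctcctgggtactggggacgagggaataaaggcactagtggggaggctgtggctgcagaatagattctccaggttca
Cdhr1: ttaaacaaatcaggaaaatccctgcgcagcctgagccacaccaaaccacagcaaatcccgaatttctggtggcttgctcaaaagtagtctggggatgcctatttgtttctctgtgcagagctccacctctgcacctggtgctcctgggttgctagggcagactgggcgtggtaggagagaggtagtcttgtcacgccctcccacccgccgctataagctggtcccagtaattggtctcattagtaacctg
Eomes: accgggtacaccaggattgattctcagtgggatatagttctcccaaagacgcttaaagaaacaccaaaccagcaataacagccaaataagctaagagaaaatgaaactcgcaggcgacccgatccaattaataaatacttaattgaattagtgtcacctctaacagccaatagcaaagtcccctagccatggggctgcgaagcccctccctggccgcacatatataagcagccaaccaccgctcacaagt
Doc2g: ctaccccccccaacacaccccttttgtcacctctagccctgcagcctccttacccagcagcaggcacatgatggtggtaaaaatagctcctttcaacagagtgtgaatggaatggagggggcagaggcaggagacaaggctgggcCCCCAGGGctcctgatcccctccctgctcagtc
The windows were searched on both strands for 6 motifs. CCCNNGGG, the core bound by EBF (Olf-1) factors of olfactory neurons, was found in Doc2g alone, 105 bases before the start site, and in 13.7% of all 32851 windows of this length. No member window held the T-box core GGTGTGA, which 3.98% of all windows held. The homeodomain core TAATTA was likewise in no member and in 5.29% of all windows. The left part of the REST element, TTCAGCACC, was in no member and in 0.371% of windows. The GC box GGGCGG, found in 35.7% of all windows, was in none of the members either. The same held for the TATA-binding protein motif TATAAA, found in 13.6%. Only these exact letters were searched, so variants of a motif, such as the TATA-like runs in Eomes and Cdhr1, were not counted. The 4 windows differed in base composition, with 46.3% G and C in S100a5, 47.3% in Eomes, 54.0% in Cdhr1 and 57.0% in Doc2g, beside a median of 52.7% over all windows. CpG pairs numbered 3 in S100a5, 9 in Cdhr1, 10 in Eomes and 0 in Doc2g, beside a median of 7.

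The sensory neuron genes were under 0.3 FPKM in 3 groups and well above it in WT-RGFP109. Omp was at 0.157 to 0.163 FPKM in WT-vehicle, 0.126 to 0.130 in R6/1-vehicle and 0.0865 to 0.0892 in R6/1-RGFP109, where each range covers the 3 tables that hold the group. In WT-RGFP109 it was at 5.36 to 5.56 FPKM. Within the table of each pair, the WT-RGFP109 value of Omp was 34.2-fold that of WT-vehicle, 44.0-fold that of R6/1-vehicle and 64.2-fold that of R6/1-RGFP109. S100a5 was listed at 0 in WT-vehicle in all 3 tables, at 0.112 to 0.116 FPKM in R6/1-vehicle and at 0.259 to 0.268 in R6/1-RGFP109. Its WT-RGFP109 value was 34.1 to 35.4 FPKM, the highest of any member in any group and above 88.9% of all genes of that group. This was 314-fold the R6/1-vehicle value and 137-fold the R6/1-RGFP109 value, and no fold is given against WT-vehicle because it was listed at 0 there.

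Among the mitral and tufted cell genes, Cdhr1 and Doc2g were above 1 FPKM in every group, while Eomes was under 0.2 FPKM outside WT-RGFP109. Cdhr1 was at 2.36 to 2.45 FPKM in WT-vehicle, 2.23 to 2.31 in R6/1-vehicle, 2.69 to 2.78 in R6/1-RGFP109 and 4.16 to 4.32 in WT-RGFP109, so that the latter was 1.76-fold the WT-vehicle value. Eomes was under 0.1 FPKM in both vehicle groups, at 0.0812 to 0.0842 in WT-vehicle and 0.0749 to 0.0775 in R6/1-vehicle. It stood at 0.144 to 0.149 FPKM in R6/1-RGFP109 and at 0.805 to 0.834 in WT-RGFP109, which was 9.91-fold the WT-vehicle value and 5.79-fold the R6/1-RGFP109 value. Doc2g was at 4.36 to 4.53 FPKM in WT-vehicle, 1.80 to 1.87 in R6/1-vehicle, 1.99 to 2.06 in R6/1-RGFP109 and 8.18 to 8.50 in WT-RGFP109. For Doc2g the step from WT-vehicle to WT-RGFP109 was 1.88-fold, smaller than the 2.51-fold step from R6/1-vehicle to WT-vehicle. In bulk tissue, fewer cells of a type and less RNA per cell cannot be told apart.

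**Figure D1:**
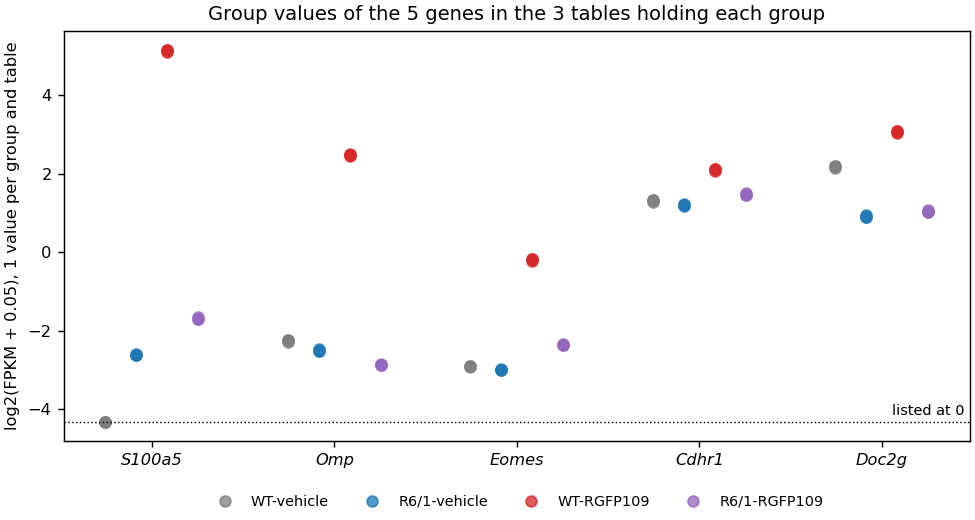
Group values of the 5 genes on the log2(FPKM + 0.05) scale (y axis), with 1 point per table that holds the group, coloured by group; the dotted line marks values listed at 0. WT-RGFP109 is the highest group for each gene, from 34.1 to 35.4 FPKM for S100a5 down to 0.805 to 0.834 for Eomes, and the spread over tables is smaller than a point.

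The order of levels per length differed between groups. In WT-RGFP109, S100a5 (34.1 FPKM in the table with WT-vehicle) stood first, followed by Doc2g (8.18), Omp (5.36), Cdhr1 (4.16) and Eomes (0.805). In WT-vehicle the order was Doc2g, Cdhr1, Omp, Eomes and S100a5, which moved from the last place to the first between the WT groups. In both R6/1 groups Cdhr1 stood above Doc2g, and the other 3 genes were all under 0.3 FPKM. Without values per mouse, no pair of neighbours in these orders can be called different beyond its spread. The FPKM added from WT-vehicle to WT-RGFP109 was 34.1 for S100a5, 5.21 for Omp, 3.82 for Doc2g, 1.80 for Cdhr1 and 0.724 for Eomes, so the genes with the largest folds were not always those with the largest added level.

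For comparisons across all genes, log2 ratios were taken after adding 0.05 FPKM to both values, and a gene counted as higher or lower past 0.5 if it had more than 0.1 FPKM in at least 1 of the groups. Against WT-vehicle, 5 of 5 members were higher in WT-RGFP109, where 3.19% of all 16957 genes were, and the members were picked for this direction. Their log2 ratios were 9.42 for S100a5, 4.71 for Omp, 2.70 for Eomes, 0.90 for Doc2g and 0.80 for Cdhr1, with a median of 2.70 beside -0.01 over all genes. The S100a5 ratio depends on the added value and is no bound. The Omp and Eomes ratios depend on it too, and were 2.46 and 0.74 with 1 FPKM added. Past a ratio of 1 there were 3 of the 5, beside 1.46% of all genes. Against R6/1-vehicle, 5 of 5 were higher beside 11.4% of all genes (5.96% were lower), with ratios from 0.93 (Cdhr1) to 7.77 (S100a5). Against R6/1-RGFP109, 5 of 5 were higher beside 11.7% of all genes (5.39% were lower), with ratios from 0.67 (Cdhr1) to 6.84 (S100a5). These 3 comparisons share the WT-RGFP109 libraries.

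The level in WT-RGFP109 was the stated ground for choosing the genes, though other results of these data were known by then. In the 3 comparisons without WT-RGFP109 the members did not move together. In R6/1-vehicle against WT-vehicle, 4 of the 5 members passed the filter, all but Eomes. Doc2g was lower, with a log2 ratio of -1.30, as were 13.4% of all genes. S100a5 was higher, at 0.112 FPKM against a value listed at 0, as were 5.84% of all genes, while Omp (-0.27) and Cdhr1 (-0.13) were past neither threshold. The S100a5 call was lost when 0.5 FPKM was added in place of 0.05 (log2 ratio 0.29). In R6/1-RGFP109 against R6/1-vehicle, 2 of 5 members were higher beside 2.62% of all genes, S100a5 with a log2 ratio of 0.93 (2.30-fold) and Eomes with 0.64 (1.92-fold). No member was lower there, beside 3.14% of all genes, and Cdhr1 (0.26), Doc2g (0.14) and Omp (-0.37) were past neither threshold. The S100a5 and Eomes values behind both calls were under 0.3 FPKM, and the calls were lost when 0.5 FPKM was added in place of 0.05. In R6/1-RGFP109 against WT-vehicle, S100a5 and Eomes (0.53) were higher beside 5.42% of all genes, and Doc2g (-1.17) and Omp (-0.64) were lower beside 13.8%. With 0.5 FPKM added, the Eomes and Omp calls of this comparison were lost, and with 1 FPKM added that of S100a5 was lost too. With 1 value per group, no interaction of genotype and treatment can be tested.

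**Figure D2:**
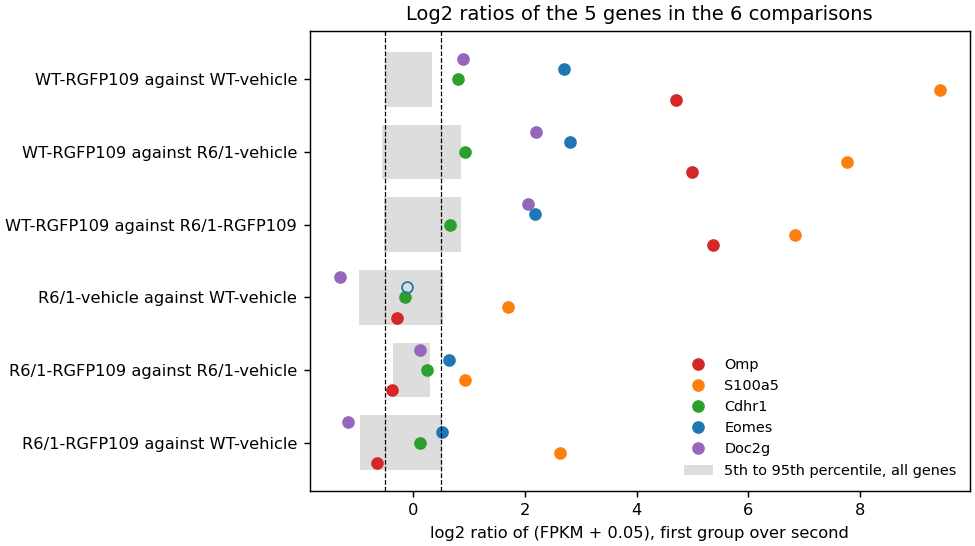
Log2 ratios of FPKM + 0.05 (x axis) for the 5 genes in the 6 comparisons of groups (y axis); grey bars span the 5th to 95th percentile of all genes, dashed lines mark the threshold of 0.5 in each direction, and an open point marks a gene under the FPKM filter. Omp, S100a5, Eomes and Doc2g lie beyond the grey bar in each of the 3 comparisons with WT-RGFP109, while Cdhr1 (0.67) lies inside it against R6/1-RGFP109.

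The 5 genes lie on 5 chromosomes (mm10). S100a5 (chr3:90608522-90611780, plus strand, 3 exons in its longest transcript) sits between S100a4 and S100a6, which encode related calcium-binding proteins. From WT-vehicle to WT-RGFP109, S100a4 went from 6.43 to 7.87 FPKM (log2 ratio 0.29) and S100a6 from 28.1 to 27.6 (-0.02), so neither neighbour was past 0.5. The table gives Omp the merged locus chr7:98121559-98184799, which it shares with Capn5 and Gm16938. In GENCODE M21, Omp is a single exon of 2144 bases at chr7:98143359-98145502 on the minus strand, inside Capn5 on the same strand but sharing 0 exon bases with it. Capn5, a calpain protease gene, was at 12.2 FPKM in WT-vehicle and 11.8 in WT-RGFP109 (log2 ratio -0.05). Gm16938 was at 0.280 and 0.416 FPKM (log2 ratio 0.50, just under the threshold), and its log2 ratio over R6/1-RGFP109 was 0.52. Values were assigned to Omp by the gene column of the tables alone.

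Cdhr1 (chr14:37077849-37098311, minus strand, 17 exons) overlapped no other annotated gene. Eomes (chr9:118478189-118486132, plus strand, 6 exons) shares 118 of its 4155 exon bases (2.84%) with the antisense gene Gm33460. Its right neighbour Golga4 went from 23.3 to 23.7 FPKM between the WT groups (log2 ratio 0.03). Doc2g (chr19:4003385-4007005, plus strand) shares 63.5% of its exon bases with Gm49405, an annotated gene on the same strand that begins in Nudt8. Reads of Doc2g and Gm49405 can therefore not be told apart over that stretch, and Gm49405 was not analysed here. Nudt8 (log2 ratio 0.14) and Ndufv1 (-0.03), on either side of Doc2g, were past neither threshold. Whether counting used strand is not given in the sources used here.

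Odorant receptor genes, each of which is normally used by a small share of the sensory neurons, were described as a family after the values had been seen. The tables hold 1119 of them. A value above 0 was listed for 148 in WT-RGFP109 (13.2%), beside 73 in WT-vehicle, 70 in R6/1-vehicle and 76 in R6/1-RGFP109. The number above 0 in 1 group alone was 87 in WT-RGFP109, beside 16, 16 and 19 in the same order of groups. Those 87 were at very low levels, with a median of 0.0136 FPKM and a highest value of 0.0419. The summed FPKM of the family was 10.9 in WT-RGFP109, 9.94 in WT-vehicle, 8.40 in R6/1-vehicle and 8.26 in R6/1-RGFP109, and its highest gene, Olfr287, was at near the same level in every group (1.96 to 2.10 FPKM). Of the 19 receptor genes that passed the FPKM filter against WT-vehicle, 4 were higher and 3 lower in WT-RGFP109, beside 3.19% and 4.92% of all genes. Against R6/1-vehicle 8 of 19 were higher and 0 lower, beside 11.4% and 5.96% of all genes. Against R6/1-RGFP109 8 of 18 were higher and 1 lower, beside 11.7% and 5.39%. In the family, 16 genes in WT-RGFP109 and 10 to 14 in the other groups were above 0.1 FPKM, and 3 per group reached 1 FPKM. A receptor gene could pass the filter through its WT-RGFP109 value alone, and such a gene tends to be called higher. The counts of higher receptor genes are thus in part set by the filter, and no conclusion is drawn from them. Ratios of the low values depend on the added 0.05 FPKM.

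Receptors of the vomeronasal organ, a separate chemosensory epithelium, did not show more listed genes in WT-RGFP109. Of 330 vomeronasal receptor genes, 20 were above 0 in WT-RGFP109, beside 21 in WT-vehicle, 24 in R6/1-vehicle and 20 in R6/1-RGFP109. Of 15 trace amine receptor genes, which serve a further class of olfactory neurons, 1 was above 0 in WT-RGFP109, beside 0, 1 and 2. Among the 18977 other protein-coding genes the share above 0 was 89.3% in WT-RGFP109, beside 88.8% to 89.5% in the other groups, and 113 were above 0 in WT-RGFP109 alone, beside 94, 82 and 123. Depth per group is unknown, groups differ in library number, and no interval is given for these counts.

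**Figure D3:**
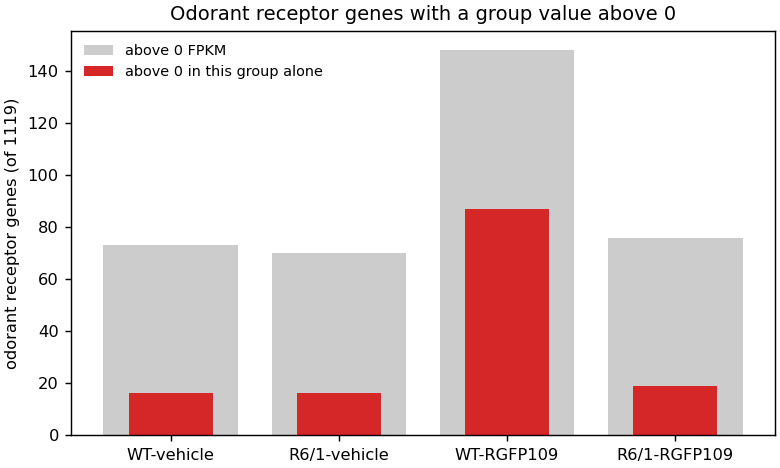
Number of the 1119 odorant receptor genes (y axis) with a group value above 0 FPKM (grey bars) and above 0 in that group alone (red bars), for the 4 groups (x axis). WT-RGFP109 has 148 and 87, beside 70 to 76 and 16 to 19 in the other groups.

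Genes of the cell types around the members were read from lists, which were written with earlier results of these data known. Of 22 other sensory neuron genes, 19 passed the filter in WT-RGFP109 against WT-vehicle, 1 was higher and 0 were lower, with a median log2 ratio of 0.05. Over all genes, 3.19% were higher and 4.92% lower in this comparison. The gene that was higher was Stoml3, which encodes a stomatin-like protein of sensory neuron cilia. It was at 0.477 FPKM in WT-vehicle, 2.49 in WT-RGFP109, 0.199 in R6/1-vehicle and 0.221 in R6/1-RGFP109, and WT-RGFP109 was 5.23-fold WT-vehicle. Several genes of odorant transduction are also used by striatal neurons, and their levels hardly differed between the WT groups. Gnal, the G protein subunit of both tissues, went from 125 to 136 FPKM (log2 ratio 0.12), and the log2 ratio of Adcy3, the olfactory adenylyl cyclase, was 0.07. Cnga2, a subunit of the olfactory cyclic nucleotide-gated channel, was at 0.267 FPKM in WT-vehicle and 0.261 in WT-RGFP109 (-0.03), and its partner Cnga4 was at 0.768 and 0.895 (0.21).

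Of the 8 mitral and tufted cell genes in the tables besides the members, 6 passed the filter and 1 was higher. This was Slc17a6, the vesicular glutamate transporter VGLUT2, which went from 3.76 to 5.89 FPKM (log2 ratio 0.64). Slc17a6 was at 6.49 FPKM in R6/1-vehicle and 5.31 in R6/1-RGFP109. Its log2 ratio of WT-RGFP109 over R6/1-vehicle was -0.04, so WT-RGFP109 was not its highest group. Tbx21, a T-box factor of the same cells, was under 0.1 FPKM in both WT groups, at 0.0294 in WT-vehicle and 0.0403 in WT-RGFP109. Reln, which encodes reelin, was at 11.6 and 10.6 FPKM (-0.13), and Tbr1 at 14.3 and 13.2 (-0.12). Lbhd2 was not analysed here. Among 13 genes of bulb interneurons, 1 was higher and 0 lower. Th, tyrosine hydroxylase of the dopaminergic periglomerular cells, was at 4.29 FPKM in WT-vehicle, 8.84 in WT-RGFP109, 4.51 in R6/1-vehicle and 3.88 in R6/1-RGFP109, and WT-RGFP109 was 2.06-fold WT-vehicle. Calb2, the calretinin gene, stood just under the threshold (20.7 to 29.1 FPKM, log2 ratio 0.49). Of 6 genes of migrating neuroblasts, 0 were higher and 1 was lower, Igfbpl1 (1.90 to 1.21 FPKM, -0.63).

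Ensheathing glia had the most list genes past the threshold among the 5 olfactory lists. Of its 7 genes, 4 were higher and 0 lower in WT-RGFP109 against WT-vehicle, beside 3.19% and 4.92% of all genes. The median log2 ratio of the list was 0.66. Fabp7, a fatty acid-binding protein of glia, went from 39.5 to 71.8 FPKM (1.82-fold). Frzb, a secreted Wnt antagonist, went from 3.91 to 6.37 FPKM (1.63-fold), and Ngfr, the p75 neurotrophin receptor, from 1.92 to 3.06 (1.59-fold). Foxd3, a transcription factor of neural crest derivatives, was listed at 0 in WT-vehicle and at 0.180 FPKM in WT-RGFP109. Foxd3 passed the filter through WT-RGFP109 alone, and its ratio depends on the added value. No other gene of the list was past a log2 ratio of 1. Over the 5 olfactory lists, 7 genes were higher, beside 6 with 0.5 FPKM added and 5 with 1 FPKM added. Npy (log2 ratio -0.01), Sox10 (-0.38) and Prss56 (-0.34), the other 3 of the list, were past neither threshold, and striatal interneurons (Npy), oligodendrocytes (Sox10) and astrocytes (Fabp7) use some of these genes too.

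Against both R6/1 groups, more genes were higher in the sensory neuron, interneuron and ensheathing glia lists than against WT-vehicle. The same was seen in the striatal projection neuron, neocortical, hypothalamic and thalamic lists and over all genes. The mitral and tufted cell list had 2 higher against R6/1-vehicle (Tbr1 and Slc17a7) and 0 higher and 1 lower (Lhx5) against R6/1-RGFP109, and the neuroblast list had 1 lower (Igfbpl1) in both. Of 20 sensory neuron genes kept, 9 were higher in WT-RGFP109 than in R6/1-vehicle and 7 were higher than in R6/1-RGFP109, with 0 lower in both. Some of the 9 were at low levels, such as Cnga2 (0.270 against 0.0587 FPKM) and Ebf3 (0.258 against 0.150). Cngb1 (0.103 against 0.0306 FPKM) passed the filter through WT-RGFP109 alone. The shares of all genes that were higher were 11.4% and 11.7%. Of the 10 striatal projection neuron genes, 9 were higher in both, and 0 were past the threshold between the WT groups. Calb2 (2.02-fold over R6/1-vehicle) and Npy (2.17-fold) were among the list genes higher in both. These 2 genes were also lower in R6/1-vehicle than in WT-vehicle, with log2 ratios of -0.52 and -1.12. In that comparison 5 of 19 sensory neuron genes were lower, beside 13.4% of all genes. In R6/1-RGFP109 against R6/1-vehicle, 0 of 19 sensory neuron genes, 0 of 13 interneuron genes and 0 of 6 neuroblast genes were higher. There, 1 of 6 mitral and tufted cell genes (Lhx5, log2 ratio 0.61) and 1 of 6 ensheathing glia genes (Frzb, 0.53) were higher. The Lhx5 call rests on low values, 0.227 FPKM in R6/1-RGFP109 and 0.131 in R6/1-vehicle. In that comparison 0 genes of the 5 lists were lower, and over all genes 2.62% were higher and 3.14% lower.

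Markers of other tissues next to the striatum also differed between the groups. The 8 choroid plexus genes summed to between 1660 and 1721 FPKM in WT-vehicle, 408 and 423 in WT-RGFP109, 760 and 791 in R6/1-vehicle and 109 and 112 in R6/1-RGFP109, and none was at 0 in any group. All 8 were lower in WT-RGFP109 than in WT-vehicle, the opposite direction to the members, where 4.92% of all genes were lower. Ttr, Folr1, Kcne2, Kl, Otx2, Sostdc1 and Enpp2 were past -1, from -2.24 (Ttr, transthyretin) to -1.21 (Enpp2, autotaxin), and Clic6 was at -0.52. Of 7 hypothalamic genes, 1 was higher (Oxt, oxytocin, log2 ratio 0.97) and 3 were lower, of 8 neocortical genes 1 was higher and 1 lower, and of 4 thalamic genes none was past the threshold. The part of any of these tissues in the members' values was not tested.

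Few protein-coding genes exceeded each other group in WT-RGFP109 by as much as S100a5, Omp and Eomes, which is the pattern the members were picked for. Genes with at least 0.5 FPKM in WT-RGFP109 were ranked by the lowest of their 3 log2 ratios over the other groups, first over all 14645 features and then, as a choice made after seeing the values, over the 13567 protein-coding genes. Among protein-coding genes, S100a5 ranked 1, Omp 2, Eomes 4, Doc2g 11 and Cdhr1 28. The third place was taken by Stoml3, with a lowest ratio of 2.27. Just inside and outside Cdhr1 (0.670) in this order stood Stac (0.671) and Ngfr (0.655). Other genes of the first 20 included Th (8), Scgn (10), which encodes the calcium-binding protein secretagogin of bulb interneurons, and Fabp7 (14). Scgn went from 0.346 FPKM in WT-vehicle to 0.903 in WT-RGFP109 (2.61-fold). Scgb1c1, a secretoglobin gene, went from 0.142 to 0.691 FPKM (4.85-fold).

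The remaining genes of the first 20 have no common role with the members that is textbook knowledge. Tnnt1 (2.26 to 5.73 FPKM, 2.53-fold) and Tnni3 (1.07 to 2.27 FPKM, 2.12-fold) encode troponin subunits of muscle. Glp1r (3.07-fold), Adra2b (1.96-fold) and Htr4 (1.71-fold) encode G protein-coupled receptors, and Lgr5 (1.75-fold) a receptor of R-spondins. Retnla, Lyzl4, Trim54, Samd3 and Hcst complete the list, each between 0.502 and 1.19 FPKM in WT-RGFP109.

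**Figure D4:**
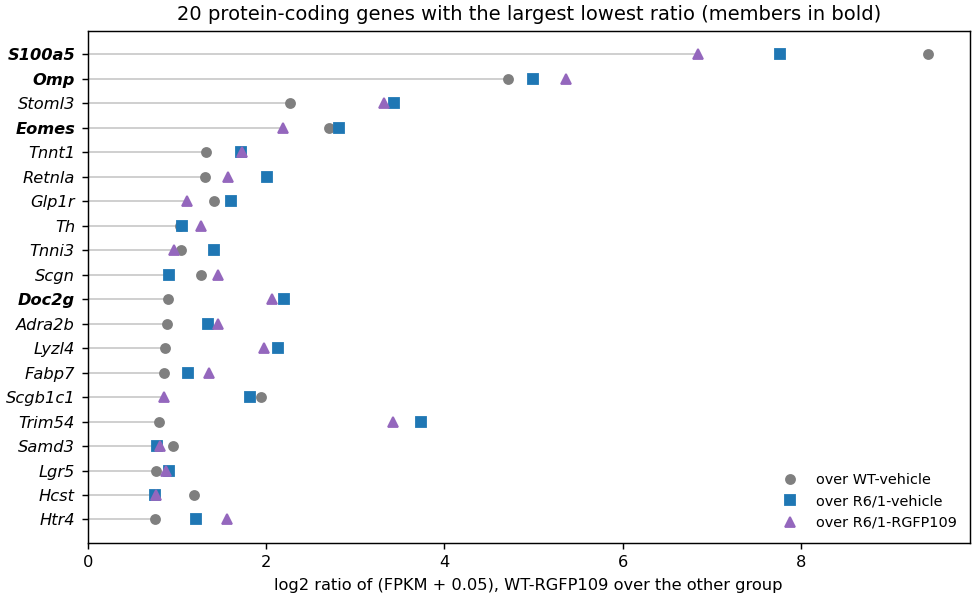
The 20 protein-coding genes with the highest lowest ratio (y axis, members in bold) and their log2 ratios of FPKM + 0.05 in WT-RGFP109 over each of the other 3 groups (x axis, 1 symbol per group). S100a5 (lowest ratio 6.84) and Omp (4.71) stand apart, Stoml3 (2.27) and Eomes (2.19) follow, and the other genes are at 1.32 or less.

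The genes closest in profile were found by the distance of their centred log2(FPKM + 0.05) values over the 4 groups from the mean profile of the members. Over these 4 points Eomes lay closest to that mean (distance 0.942), then Omp (1.39), Doc2g (1.99), Cdhr1 (2.44) and S100a5 (4.15). The nearest gene outside the members was Stoml3, at 1.15. Of the 15 nearest features, 6 were protein-coding (Stoml3, Retnla, Tnnt1, Scgb1c1, Glp1r and Lyzl4) and 9 were small RNA genes. Among protein-coding genes alone, the 15 nearest also held Adra2b, Tnni3, Scgn, Th, Fabp7, Htr4, Noxred1, Frzb and Otof. Otof encodes otoferlin and went from 11.3 to 16.4 FPKM between the WT groups. Of these 15 protein-coding genes, 12 were also in the 20 described above. A profile of 4 group values is a weak measure of likeness, and with Pearson correlation in its place 0 of the 15 were the same.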

How the data were processed

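RNA was extracted from striatum and TruSeq libraries were sequenced as single-end reads in 2 pools. The authors aligned reads to RefSeq transcripts of mm10 with STAR (2.5.0b), estimated FPKM values with Cufflinks (2.2.1), and ran Cuffdiff on each pair of the 4 groups. Each of the 6 deposited tables gives 1 FPKM value for each group of its pair. The tables also hold the authors' log2 fold changes, test statistics, p-values, q-values and test status, which were not used. Cuffdiff scaled each pair, and values of 1 group differed between tables by a common factor of at most 3.92%. Depth per library is unknown.

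Log2 ratios were computed after adding 0.05 FPKM, over genes with more than 0.1 FPKM in at least 1 group, and called past 0.5. The pseudocount and the minimum are those of the study's gene set analysis and the fold is that of its gene calls, whose q-value threshold was not applied. With 1 value per group, no test was run here, and values per library from other sources were not used. Genes named were the members, list genes past a log2 ratio of 1 between the WT groups and up to 4 more per list, the 15 nearest profiles, the 20 largest lowest ratios and neighbouring genes. Other genes (Clic6, further list genes given by name) were named after their values were seen. Members and lists were chosen with earlier results of these data known. Biotypes came from RefSeq, matched for 24140 of 24340 genes, and overlaps from GENCODE M21. Alternatives were other pseudocounts, thresholds, filters, median centring and ratios through a further group's tables. Python 3.11.15, numpy 2.4.6, pandas 2.3.3 and matplotlib 3.10.9 were used.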

Additional observations from a re-analysis of the deposited data

How the results depend on the processing

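No paired analysis was possible because the tables hold 1 value per group and no column per library, and for the same reason no library could be left out of these values. All 89 log2 ratios of members in comparisons with WT-RGFP109 stayed above 0.5 under each alternative run. The members were picked for a raised level in that group, and these ratios rework the same group values. They are therefore no independent support. None of the 177 member ratios reversed, but 61 of them moved by more than 0.1 on the log2 scale. With 1 FPKM added, the log2 ratios of WT-RGFP109 over WT-vehicle were 5.13 for S100a5, 2.46 for Omp and 0.74 for Eomes. Those of Doc2g and Cdhr1 were 0.78 and 0.62. The 40 repeated FPKM values of members differed by less than 0.1 on the log2 scale between tables. Adding the same value to both groups cannot reverse a ratio. The repeated values are the same libraries on another scale, so neither they nor the lack of reversals say much about stability. Past a log2 ratio of 1 in place of 0.5, 3 of the 5 members were past it in WT-RGFP109 against WT-vehicle, and olfactory list genes went from 7 to 3 higher and from 1 to 0 lower, the latter also with 0.5 or 1 FPKM added. In R6/1-vehicle against WT-vehicle, 1 in place of 2 members was called with 0.5 or 1 FPKM added or with a minimum of 1 FPKM. In R6/1-RGFP109 against R6/1-vehicle, 0 in place of 2 were called under these settings or past a ratio of 1. In R6/1-RGFP109 against WT-vehicle, 4 calls became 2 with 0.5 FPKM added or past a ratio of 1, and 1 with 1 FPKM added or with the higher minimum. A larger added value or minimum takes calls from genes of low FPKM by construction. Of the 15 nearest features, 0 were shared when Pearson correlation replaced the distance and 6 when protein-coding genes alone were ranked, the latter a choice made after seeing the data. Over all genes, 541 were higher in WT-RGFP109 than in WT-vehicle, beside 245 with 0.5 FPKM added, 206 with 1 FPKM added, 247 past a ratio of 1, 253 with a minimum of 1 FPKM and 862 with no filter.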

Other observations

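Small RNA genes filled the first 20 places when all features were ranked by the lowest ratio of WT-RGFP109 over the other groups, led by Snora20, Snord71 and Mir7675, and 19 of the 20 were listed at 0 in the other 3 groups. In that ranking S100a5 stood at 35, Omp at 48, Eomes at 51, Doc2g at 77 and Cdhr1 at 101. Small RNA genes listed in 1 group alone were found in each group, 41 in WT-RGFP109, 47 in R6/1-RGFP109, 22 in WT-vehicle and 28 in R6/1-vehicle.

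Other groups had protein-coding genes of their own. With the same ranking for each group, 47 protein-coding genes had a lowest log2 ratio above 0.5 in WT-RGFP109, beside 125 in WT-vehicle, 18 in R6/1-vehicle and 11 in R6/1-RGFP109. Above a ratio of 2 there were 3 in WT-vehicle, led by the keratin gene Krt2 (3.29), 1 in R6/1-vehicle, the chemokine gene Ccl2 (2.44), and 0 in R6/1-RGFP109, where the chemokine gene Ccl5 (1.53) stood first. WT-RGFP109 had 4 above 2, namely S100a5, Omp, Stoml3 and Eomes. All but Stoml3 are members, which were picked for a raised level in that group.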
